A study of Arabidopsis thaliana with 5 samples.

Results

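Of the 2243 peaks called for FLAG-tagged NDX in *Arabidopsis thaliana* seedlings, 355 lay in pseudogene loci and did not overlap any peak called for GFP-tagged NDX, and these 355 peaks are described here. A peak was counted when it shared no base with any of the 583 NDX-GFP peaks and when its midpoint fell in no protein-coding gene but inside a locus that the TAIR10.1 RefSeq annotation gives as a pseudogene, a class that includes remnants of transposable elements. The 5 samples came from seedlings aged 10 days, with 2 immunoprecipitations and 1 input for FLAG-NDX and 2 immunoprecipitations for NDX-GFP. The FLAG-NDX seedlings carried flag-NDX and the NDX-GFP seedlings carried NDX-GFP, and both lines were in the ndx1-1(FRI) flc-2 background, so that every sample shared the ndx1-1 and flc-2 alleles. The labels name an anti-FLAG antibody for the FLAG-NDX immunoprecipitations and an anti-GFP antibody for those of NDX-GFP, and none for the input. The promoters that drive the tagged genes are not given with the samples, and neither is the number of transgenic lines. The labels' account of the extraction, however, has protein digested away and the S9.6 antibody, which recognises DNA-RNA hybrids, used for the pull-down, and it cannot be settled from the lists which procedure was followed. The ndx1-4 seedlings without a tag that the growth protocol names were not analysed here.

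The authors deposited 1 list of peaks for each tagged line, so there is no replicate check, and no p-value is given in what follows. The intervals are 95% Wilson intervals for shares and exact Poisson intervals for densities, and they cover counting error only, since peaks that lie in copies of the same element are not independent. Read depth is unknown. Each peak carries a score whose unit is not stated, and differences in it are given as descriptions.

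As background, NODULIN HOMEOBOX (NDX) is a plant homeodomain protein known from the antisense promoter of FLOWERING LOCUS C, where it binds DNA and stabilises an RNA-DNA hybrid. Pericentromeric DNA of *Arabidopsis* is rich in transposable elements and in decayed copies of them, most of which are kept silent by DNA methylation and repressive histone marks. Copia elements are retrotransposons that move through an RNA copy, whereas hAT, Mutator and En/Spm elements are DNA transposons that encode their own transposases. Helitrons are DNA transposons that use a replication initiator and helicase, and helicases of the PIF1 family and proteins with the OB-fold of replication protein A are often carried by or related to them in plants.

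The 355 FLAG-NDX-only peaks lay in 307 loci, which is 6.34% of the 4843 pseudogene loci. Of the 438 FLAG-NDX peaks in pseudogene loci, 81.1% did not overlap an NDX-GFP peak, beside 88.6% of all FLAG-NDX peaks, and since the rule used this overlap nothing is read from the difference. A further 83 FLAG-NDX peaks in pseudogene loci overlapped an NDX-GFP peak and are called shared. The NDX-GFP list had 150 peaks in pseudogene loci, of which 70 overlapped no FLAG-NDX peak. In 268 of the 307 loci there was 1 FLAG-NDX-only peak, in 32 there were 2 and in 7 there were 3 or more. An annotated exon of the pseudogene held 337 of the midpoints and an intron held 18. The share of exon bases over all pseudogene loci is not given here, so no preference for exons is read from these counts. Pseudogene loci on the plus strand held 185 of the peaks and those on the minus strand 170.

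The highest scores and the sequences behind them came from different kinds of loci. The FLAG-NDX-only peak with the highest score, 334, was 210 bp wide and lay in an exon of AT3G31980, a locus of 4105 bp on the minus strand of chromosome 3 whose translated sequence best matched a PIF1 helicase (AT3G51690, 51.8% identity over 193 residues). A peak with a score of 248.5 lay in AT2G11720, a locus on chromosome 2 with no match to an annotated protein. Both sequences are shown because they differ in repeat content, which bears on where short reads can be placed. Capitals mark bases inside a 31-mer that occurs more than once in the assembly, and the sequences are from TAIR10.1 (RefSeq).
AT3G31980 (chr3:12974536-12974745, plus strand): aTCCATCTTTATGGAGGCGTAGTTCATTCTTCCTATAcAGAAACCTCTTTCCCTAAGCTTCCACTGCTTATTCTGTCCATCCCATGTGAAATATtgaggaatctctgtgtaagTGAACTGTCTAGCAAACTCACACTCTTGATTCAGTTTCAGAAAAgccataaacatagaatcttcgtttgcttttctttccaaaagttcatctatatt
AT2G11720 (chr2:4702486-4702740, plus strand): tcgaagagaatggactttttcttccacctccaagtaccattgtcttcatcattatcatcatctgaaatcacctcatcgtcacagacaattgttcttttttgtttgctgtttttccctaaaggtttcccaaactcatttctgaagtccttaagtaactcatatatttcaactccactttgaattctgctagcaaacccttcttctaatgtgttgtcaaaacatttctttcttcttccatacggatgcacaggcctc
In AT3G31980, 25.6% of the 31-mers were repeated and 2 alike copies of the peak were found, the peak itself included. In AT2G11720 none was repeated, and the peak had no alike copy elsewhere.

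Across the 355 peaks the score had a minimum of 86, a median of 118 and a maximum of 334, with the middle of the distribution between 103.25 and 136 (lower and upper quartile). The median was 129 in the 83 shared peaks, 118 in the 584 FLAG-NDX-only peaks of protein-coding genes and 118 in the 1048 that lay in neither class. A score of 200 or more was reached by 8 of the 355 peaks and a score of 150 or more by 53, while 57 were under 100. The FLAG-NDX-only peaks in pseudogene loci thus had the same median score as those elsewhere, and the shared peaks had a higher median. The widths of the 355 peaks reached 525 bp, with a median of 135 bp. The 71 peaks with the smallest width had a median score of 107, and the 68 peaks of 200 bp or more had a median of 128.

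The 10 peaks with the highest scores lay in 10 loci, 9 of them in pericentromeric zones. After AT3G31980, a peak in AT5G35354 reached 266.5, followed by 248.5 in AT2G11720 and 232 in AT5G34868. AT5G34868 best matched DAYSLEEPER (AT3G42170), a domesticated hAT transposase that plants need for normal growth. A peak in AT2G02210 scored 216.5 and was the exception in position, since it lay on the arm of chromosome 2. The peak in AT2G06910 scored 207, that in AT5G35240 scored 205.5 and that in AT1G38203 scored 203. AT3G33070 and AT1G40073 closed the series with 197.5 and 196.5. Of these 10 peaks, AT2G11720, AT2G06910, AT5G35240 and AT3G33070 had no repeated 31-mer, whereas AT2G02210, AT1G38203 and AT1G40073 consisted of repeated 31-mers alone. The number of NDX-GFP midpoints in each of these 10 loci was 0.

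Since the rule admits only midpoints in pseudogene loci, the position of the peaks along the chromosomes largely follows from where these loci lie, and it is given as a description. On every chromosome the stretch of 1 Mb least covered by protein-coding genes was located, and the sequence within 2.5 Mb of its centre was called the pericentromeric zone. These zones held 270 of the 355 peaks, or 76.1% (interval 71.4 to 80.2%), while they make up 21% of the nuclear genome. Of the bases of pseudogene loci, 74.4% lay in the same zones. The share was 77.1% in the shared peaks and 78.6% in the 70 NDX-GFP-only peaks of pseudogene loci, and both lie inside the interval of the FLAG-NDX-only peaks. It was 61.9% in the FLAG-NDX-only peaks outside both gene classes and 14.9% in those of protein-coding genes. Per length of pseudogene locus the zones held 3.51 peaks per 100 kb and the arms 3.21, beside 3.43 (3.08 to 3.81) over all 10346904 bases.

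**Figure D1:**
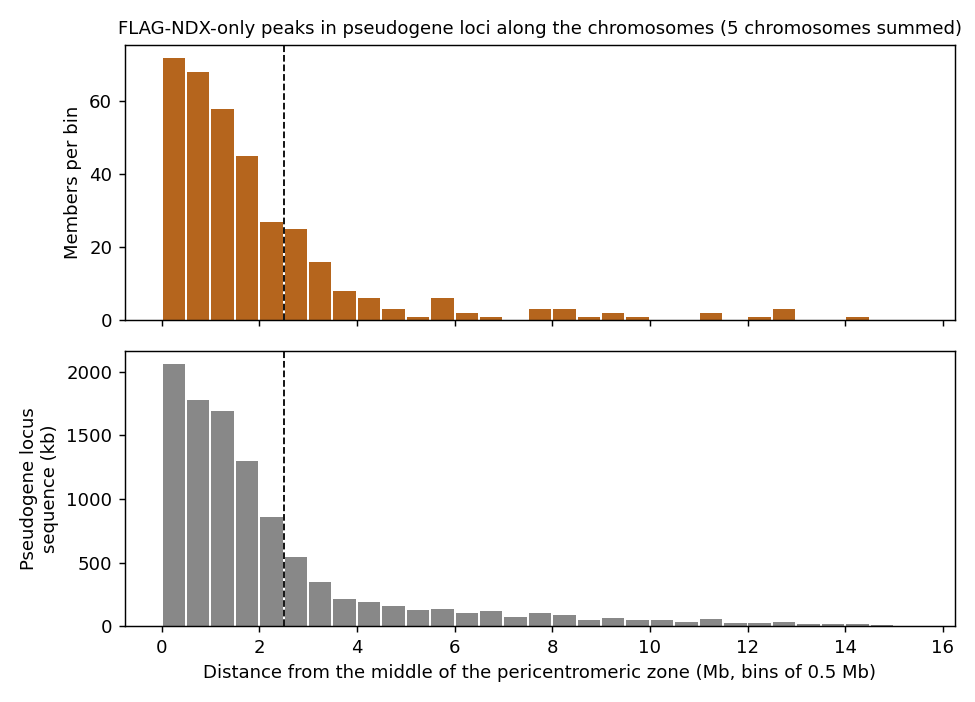
The upper bars count the FLAG-NDX-only peaks in pseudogene loci and the lower bars give the kb of pseudogene locus sequence, in bins of 0.5 Mb by distance from the middle of the pericentromeric zone, summed over 5 chromosomes, with the dashed line at 2.5 Mb. Both fall with distance, with 72 peaks in the bin next to the middle and 25 in the bin just beyond the dashed line.

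By chromosome, 71 of the peaks lay on chromosome 1, 74 on chromosome 2, 97 on chromosome 3, 47 on chromosome 4 and 66 on chromosome 5. Chromosome 3 had the highest density, 4.13 per 100 kb of pseudogene locus, and chromosome 4 the lowest, 2.65. The density in the bin next to the zone's middle was 3.49 per 100 kb, and in the 5 bins that reach to 2.5 Mb it stayed between 3.13 and 3.82. On the arms it was uneven, with 58 peaks and 3.98 per 100 kb between 2.5 and 5 Mb from the middle of the zone, and 27 peaks and 2.26 per 100 kb beyond 5 Mb, a split chosen after the values were seen. The 85 peaks on the arms had a median score of 115 and the 270 in the zones had a median of 118.25.

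Repeated sequence was common in the peaks. Of the 355 peaks, 135 (38.0%, interval 33.1 to 43.2%) held no 31-mer that occurs elsewhere in the assembly, 44 (12.4%) consisted of repeated 31-mers alone, and 176 (49.6%) were mixed. In the shared peaks 31.3% held no repeated 31-mer, and in the NDX-GFP-only peaks of pseudogene loci 28.6%. Both fall below the interval of the FLAG-NDX-only peaks, but their own intervals (22.4 to 41.9% and 19.3 to 40.1%) overlap it. The FLAG-NDX-only peaks in protein-coding genes were mostly without repeats, with 80.8% holding none. Pseudogene locus sequence as a whole had 31.3% of its 31-mers repeated and the nuclear genome 8.91%. These are shares of 31-mers and not of peaks, so they cannot be set against the shares of peaks given above. How reads that map to several places were treated is not given in the sources used here. The median score was 113.5 in the 135 peaks without repeated 31-mers, 118.25 in the mixed ones and 127.5 in the 44 made of repeats alone.

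**Figure D2:**
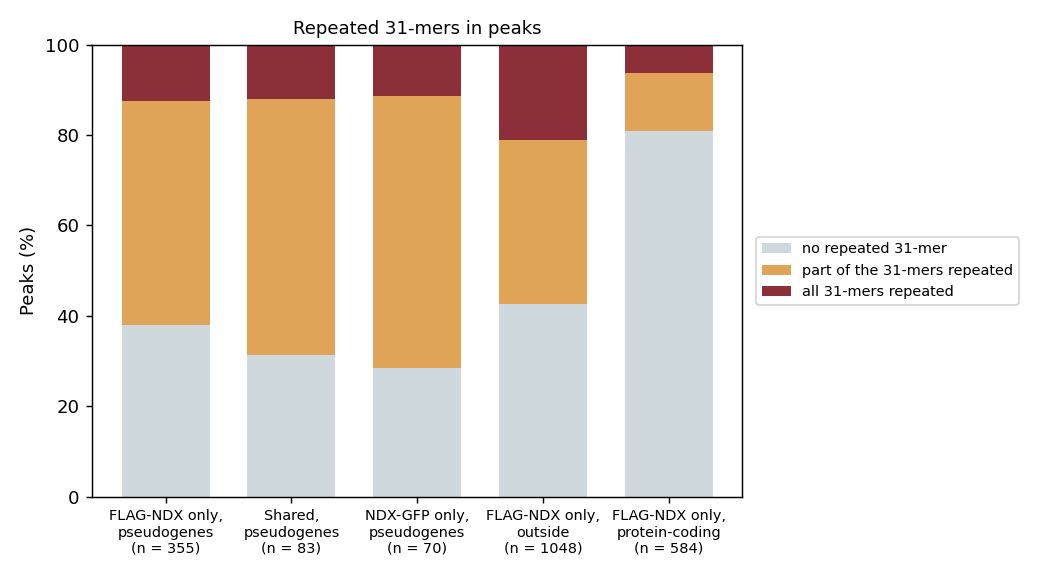
Each bar splits a set of peaks into those with no repeated 31-mer, with some, and with all 31-mers repeated, as percent of the set. In the FLAG-NDX-only peaks of pseudogene loci these shares are 38.0%, 49.6% and 12.4%, close to those of the shared and NDX-GFP-only peaks of the same loci, while 80.8% of the FLAG-NDX-only peaks in protein-coding genes hold no repeated 31-mer.

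Most peaks had a close relative elsewhere in the genome. An alike copy was a stretch with at least 80% identity over at least 80% of the peak. No such copy besides the peak itself was found for 84 peaks, 172 had 2 to 9 copies, 88 had 10 to 99 and 11 had 100 or more, with a median of 4. The median was also 4 in the shared and in the NDX-GFP-only peaks of pseudogene loci, 3 in the FLAG-NDX-only peaks outside both gene classes and 1 in those of protein-coding genes. The largest number, 1370 copies, belonged to a peak with a score of 133 in AT1G39670 on chromosome 1, and the next was 260 for a peak in AT5G49080, which had a score of 116. Only 2 peaks, in AT3G22238 and AT3G33000, had an alike stretch in the chloroplast genome.

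Copies of the same element held several of the peaks. Peaks were called alike when a copy of one overlapped the other by at least 50% of the shorter, and groups were chained through such links. In all, 67 of the 355 peaks were alike to another of them, in 26 groups, of which 10 had 3 or more peaks and 16 had 2. Not every pair in a group was alike, and groups are not distinct elements, since loci such as AT3G30440 held peaks of different groups. The largest group had 6 peaks on chromosomes 1, 2 and 4, with scores of 203 (AT1G38203), 157 (AT1G40070), 153 (AT1G37070), 135 (AT2G11050), 113 (AT4G06585) and 95 (AT1G38400), and each had 48 or 49 copies in the assembly. None of these loci matched an annotated protein. A group of 4 peaks is shown because its members sit at nearly the same place of their loci, between 1813 and 1900 bp from the 5′ end. Capitals mark the positions at which the 4 sequences differ, in a stretch of 59 bp with 47 identical positions.
AT3G30717 (chr3:12330991-12331049, plus strand): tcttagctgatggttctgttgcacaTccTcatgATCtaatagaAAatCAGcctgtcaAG
AT1G38270 (chr1:14388746-14388804, plus strand): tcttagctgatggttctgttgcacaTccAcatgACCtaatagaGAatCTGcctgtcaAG
AT2G12360 (chr2:4975546-4975604, minus strand): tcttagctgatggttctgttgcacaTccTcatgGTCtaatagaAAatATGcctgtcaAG
AT2G11660 (chr2:4679884-4679942, minus strand): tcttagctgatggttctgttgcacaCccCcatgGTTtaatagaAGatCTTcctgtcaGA
Their scores were 169 in AT3G30717, 100 in AT1G38270, 96 in AT2G12360 and 87 in AT2G11660.

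A group of 3 peaks lay in loci on chromosomes 1, 2 and 3 and was the most uniform of the 6 groups aligned, with 117 of 120 aligned positions identical. AT2G02210, whose translated sequence best matched a protein with a DUF1985 domain, scored 216.5. AT1G32840 scored 161 and AT3G30440 scored 147.5, and neither locus matched an annotated protein. All 3 peaks lay near the 3′ end of the annotated locus. The capitals again mark differing positions.
AT2G02210 (chr2:577456-577575, minus strand): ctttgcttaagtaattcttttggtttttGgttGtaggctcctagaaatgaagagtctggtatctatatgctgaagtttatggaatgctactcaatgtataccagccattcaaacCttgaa
AT1G32840 (chr1:11896621-11896740, minus strand): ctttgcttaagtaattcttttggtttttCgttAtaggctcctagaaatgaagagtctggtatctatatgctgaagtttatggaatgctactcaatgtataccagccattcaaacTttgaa
AT3G30440 (chr3:12081681-12081800, plus strand): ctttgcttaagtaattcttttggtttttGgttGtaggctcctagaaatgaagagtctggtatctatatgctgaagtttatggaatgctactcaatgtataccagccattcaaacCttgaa
The peaks of AT2G02210 and AT3G30440 shared a stretch of 220 bp that was identical at every position, so reads from within it cannot be told apart, and their scores were 216.5 and 147.5. In the same way AT1G40073 and AT1G39910 shared 240 identical bp and had scores of 196.5 and 125.5.

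A further group of 3 came from loci that best matched a PIF1 helicase, and its peaks also lay near the 3′ end of each locus. AT1G36570 scored 153, AT3G31440 scored 135 and AT5G34960 scored 125, and 120 of 134 aligned positions were identical.
AT1G36570 (chr1:13806556-13806689, plus strand): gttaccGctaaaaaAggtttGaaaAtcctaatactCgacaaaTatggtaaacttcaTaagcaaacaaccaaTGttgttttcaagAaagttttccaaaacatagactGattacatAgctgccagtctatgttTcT
AT3G31440 (chr3:12800298-12800431, minus strand): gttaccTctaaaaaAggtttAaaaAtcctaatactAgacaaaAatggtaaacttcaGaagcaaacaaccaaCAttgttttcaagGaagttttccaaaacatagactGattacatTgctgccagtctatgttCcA
AT5G34960 (chr5:13246501-13246634, minus strand): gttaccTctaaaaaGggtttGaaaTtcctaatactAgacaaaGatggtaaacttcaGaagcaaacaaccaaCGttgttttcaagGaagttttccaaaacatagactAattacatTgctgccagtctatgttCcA
These peaks had 5, 8 and 10 copies in the assembly, and those of the preceding group had 16 or 17.

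What the loci once encoded could be read from their Notes for few of them, since the annotation gives a Note for 502 of the 4843 loci and for 11 of the 355 peaks, so that 96.9% of the peaks have none. Among those 11, the peak in AT5G43015 (score 112) lay in a locus annotated as a Mutator-like transposase. The peak in AT1G28002 (score 98) lay in a pseudogene of AT5G27260. The Note calls AT5G27260 a homeodomain-like protein, and its annotated product is a Myb/SANT-like DNA-binding domain protein. The peak in AT1G52211 (130.5) lay in a pseudogene of TOM3, and that in AT1G74457 (104) in a pseudogene of the MADS-box gene AGL65. AT5G32690, a locus of 58519 bp on chromosome 5 annotated as a pseudogene of AT2G29880, held 4 of the 11, all in its intron, with scores of 106.5, 110, 132 and 119. The loci were therefore grouped by the annotated protein that their translated sequence matched best, with classes chosen after the matches were seen, and 2637 of the 4843 loci had a match, which held 206 of the 355 peaks. The midpoint of the peak lay inside the matched stretch in 82 of the 206. The densities of these classes are therefore descriptions of the loci and not of the bases under the peak.

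**Figure D3:**
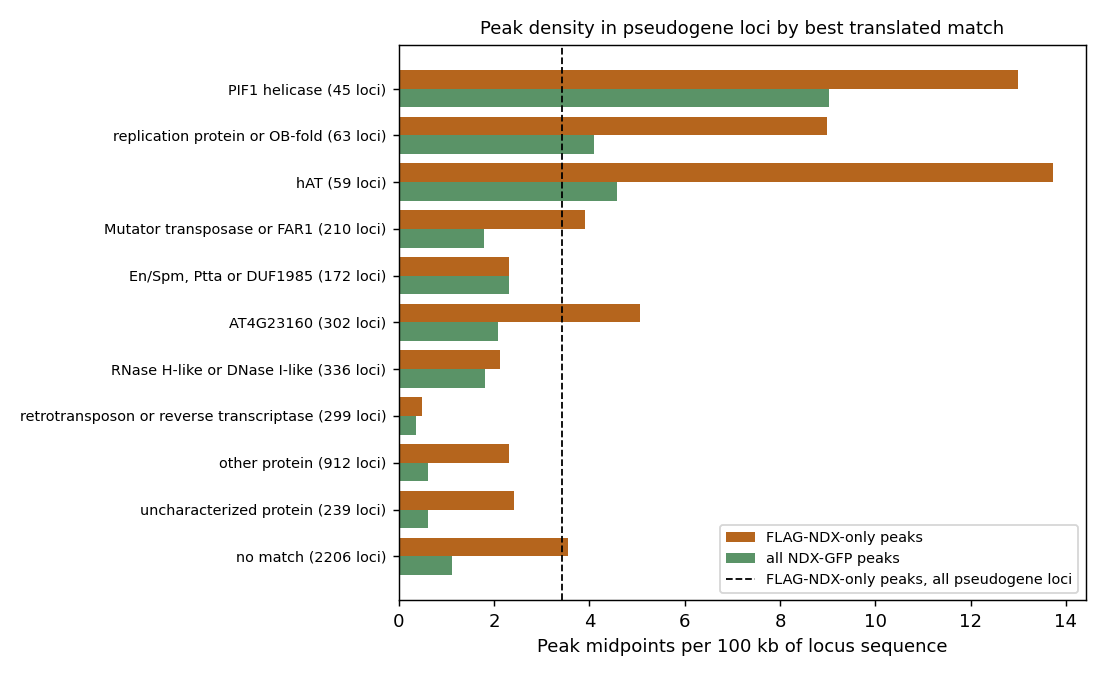
The bars give peak midpoints per 100 kb of pseudogene locus by the class of the best translated match, for FLAG-NDX-only peaks and for all NDX-GFP peaks, and the dashed line marks the FLAG-NDX-only density over all pseudogene loci, 3.43. The hAT, PIF1 helicase and replication protein classes stand highest, at 13.7, 13.0 and 8.99. Loci whose best match is a retrotransposon or reverse transcriptase protein stand lowest at 0.48, and this class does not hold every retrotransposon locus.

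Loci that best matched a PIF1 helicase, an enzyme that unwinds DNA, held 23 of the peaks in 14 of 45 loci (31.1%, interval 19.5 to 45.7%), beside 6.34% of all pseudogene loci. Their density was 13.0 per 100 kb (8.24 to 19.5), or 12.9 in the pericentromeric zones alone. All NDX-GFP peaks had a density of 9.04 per 100 kb in the same loci, from 16 peaks, beside 1.45 per 100 kb over all pseudogene loci from 150 peaks. After AT3G31980 with 334, the highest scores in the class were 169 in AT5G28670 and 168 in AT5G34960. Loci that matched replication proteins or OB-fold proteins, which bind single-stranded DNA, held 11 peaks in 10 of 63 loci (15.9%), at 8.99 per 100 kb, and all NDX-GFP peaks came to 4.09. With a stricter limit on the match (e-value 1e-30 in place of 1e-10) this class kept 3 peaks in 3 of 18 loci, at 7.84 per 100 kb, so most of its peaks rest on weaker matches. The highest score was 160 in AT5G37080. The PIF1 helicase class kept all 23 peaks under this limit, in 14 of 38 loci.

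Loci that matched hAT proteins held 15 peaks in 14 of 59 loci (23.7%, interval 14.7 to 36.0%), at 13.7 per 100 kb, against 4.58 for all NDX-GFP peaks from 5 peaks. The class had the highest median score, 142, and its leading peaks were those in AT5G34868 (232), AT5G35240 (205.5) and AT5G64685 (195). The peak in AT5G64685 lay on the arm of chromosome 5, consisted of repeated 31-mers alone and had 3 copies. With the stricter match limit the hAT class kept 10 peaks in 9 of 32 loci, at 14.7 per 100 kb. Loci that matched Mutator transposases or FAR1-related proteins, which descend from such transposases, held 22 peaks in 20 of 210 loci (9.52%), at 3.91 per 100 kb, and the highest score was 154 in AT1G42600.

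Loci that matched En/Spm transposases or proteins with a DUF1985 domain held 13 peaks in 11 of 172 loci (6.40%), at 2.30 per 100 kb. All NDX-GFP peaks there had the same density, but the rule left out 8 shared FLAG-NDX peaks of this class, so nothing is read from the equality. Most of the 13 peaks came from a small set, since 7 of the 11 loci that best matched AT3G32960, a DUF1985 protein, held at least 1, among them AT2G02210 (216.5), AT3G29210 (166) and AT2G15190 (153). With the same stricter limit the class kept 1 peak, at 0.25 per 100 kb, so its members rest on weak matches.

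The largest class of matched loci, with 56 peaks, best matched AT4G23160. This gene is annotated as a receptor-like kinase, and AT4G02960, 1 of 2 pseudogene loci whose Note names a copia element, also matched it best, while the other, AT3G20085, matched no annotated protein. The 56 peaks lay in 45 of 302 loci (14.9%, interval 11.3 to 19.4%), at 5.06 per 100 kb (3.82 to 6.57), and all NDX-GFP peaks came to 2.08. Of the 56 peaks, 34 (60.7%) held no repeated 31-mer, more than the 38.0% over all 355, and their median score was 113.5. The highest scores were 197.5 in AT3G33070, 186 in AT2G11950 and 185 in AT3G43444.

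Loci that matched retrotransposon or reverse transcriptase proteins were nearly free of the peaks, with 4 in 3 of 299 loci (1.00%, interval 0.34 to 2.91%) and a density of 0.48 per 100 kb. All NDX-GFP peaks were also rare there, at 0.36 per 100 kb from 3 peaks. The 4 scores were 150 in AT2G06080, 144 and 117 in AT3G43625 and 120 in AT4G04316. This class does not hold every retrotransposon locus, so its low density cannot be read as that of retrotransposons. The copia locus AT4G02960 fell in the AT4G23160 class, at 5.06 per 100 kb, and AT2G11120, whose Note names Athila, matched no protein. Loci that matched RNase H-like or DNase I-like proteins, of which RNase H-like domains also occur in retrotransposons, held 20 peaks in 14 of 336 loci (4.17%), at 2.12 per 100 kb, with a highest score of 164.5 in AT2G13520. Of these 20 peaks, 4 were the intron peaks of AT5G32690, and none of those midpoints lay in its matched stretch of 98 residues. Loci that matched other proteins held 30 peaks at 2.32 per 100 kb, the highest in AT3G30740 (181), and uncharacterized proteins 12 at 2.41, the highest in AT1G39670 (133). The 2206 loci without a match held 149 peaks in 136 loci (6.17%), at 3.56 per 100 kb (3.01 to 4.18), which is close to the density over all loci.

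**Figure D4:**
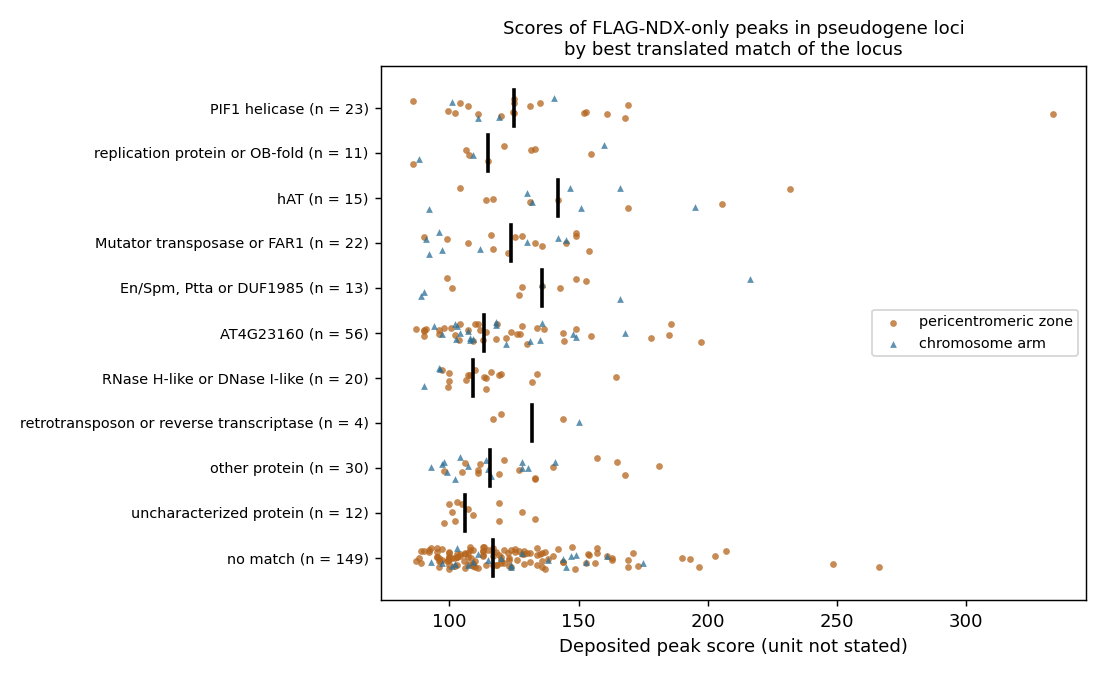
Each point is the deposited score of a FLAG-NDX-only peak in a pseudogene locus, in a row for the class of the locus's best translated match, with circles for the pericentromeric zones, triangles for the arms and a black bar at the median of the row. The median runs between 106 for uncharacterized proteins and 142 for hAT, and the classes overlap over most of their range, apart from the PIF1 helicase peak at 334.

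A few loci held several peaks. AT5G34960, a locus of 4699 bp with 15 exons that matched a PIF1 helicase, held 4, with scores of 125, 125, 125 and 168, of which 3 lay in exons. AT5G32690, the long locus with the large intron, also held 4 over a far greater length. AT5G42645, which matched AT4G23160 and lies on the arm of chromosome 5, held 3 with scores of 104, 168 and 149. AT2G13520, with a ribonuclease H-like match, held 3 with scores of 107, 164.5 and 100, and AT4G08596, with a match to FAR1-related sequence 5, held 3 with scores of 99, 145 and 117. Neither AT5G34960 nor AT5G42645 nor AT4G08596 held an NDX-GFP midpoint, while AT5G32690 held 2 and AT2G13520 held 1. The loci with a FLAG-NDX-only peak were longer than pseudogene loci in general, with a median length of 3039 bp against 1686 bp over all pseudogene loci. A longer locus is more likely to hold a midpoint wherever peaks fall, so nothing is read from this difference.

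Within the loci the midpoints lay more often toward the 3′ end of the annotated strand. With each locus divided into 10 equal bins, the 5 bins on the 3′ side held 214 of the 355 midpoints (60.3%, interval 55.1 to 65.2%) and the 5 on the 5′ side held 141. The bin at the 5′ end held the fewest, 18, and bin 6 held the most, 52. These counts are not given for the shared or NDX-GFP peaks of pseudogene loci, so nothing particular to the 355 is read from them. Peaks in copies of the same element can recur at like positions, so the midpoints are not independent.

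**Figure D5:**
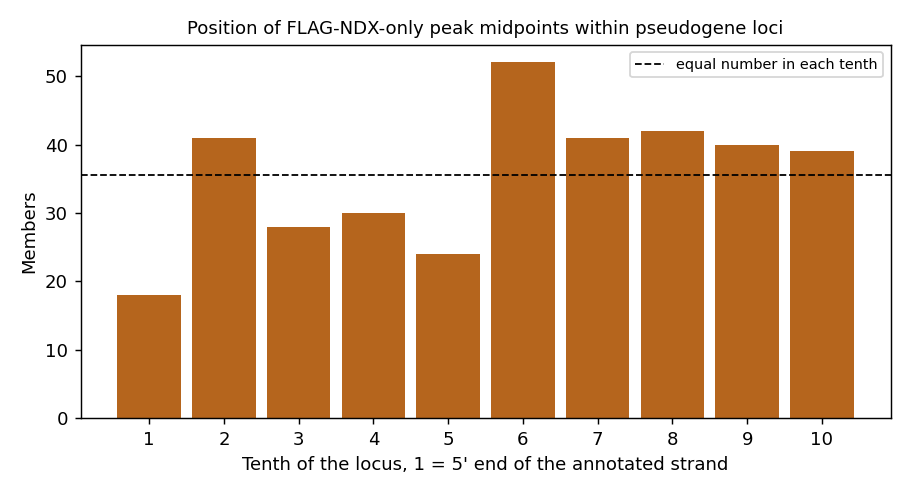
The bars count the midpoints of FLAG-NDX-only peaks in each of 10 equal bins of the pseudogene locus, with bin 1 at the 5′ end of the annotated strand, and the dashed line shows an equal number in every bin. Bins 6 to 10 hold between 39 and 52 midpoints each and bin 1 holds 18.

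The GC content of the peaks averaged 36.4% ± 3.7 (SD over 355 peaks), and that of the loci that held them 37.8% ± 3.0 (SD, each locus counted once per peak). The peak was below its own locus in 229 of 355 cases and above it in 126, with a mean difference of -1.36 ± 3.60 percentage points (SD), so the difference was small beside the spread over peaks. All pseudogene loci together had a GC content of 41.3%, the 307 loci that held a peak had 38.2% and the nuclear genome had 36.0%. Among the other sets it averaged 36.7% ± 2.6 (SD) in the 83 shared peaks, 35.7% ± 3.9 in the FLAG-NDX-only peaks of protein-coding genes and 33.9% ± 4.1 in those outside both gene classes. Peaks of loci that matched hAT proteins averaged 33.9% and those of loci that matched AT4G23160 averaged 37.7%.

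Homeodomains bind DNA around a TAAT core, and the palindrome TAATTA was searched in a central window as wide as the narrowest peak, which for a palindrome covers both strands. It was present in 12 of the 355 peaks (3.38%, interval 1.94 to 5.81%), beside 2.52% of 96169 adjoining windows of the same length over pseudogene loci and 7.22% of those over the nuclear genome. Over all FLAG-NDX peaks the share was 7.45%, and in the FLAG-NDX-only peaks outside both gene classes it was 10.3%. The peaks in pseudogene loci thus held it about as often as other windows of pseudogene sequence. The highest score among the 12 was 205.5 in AT5G35240, a locus of 2317 bp on chromosome 5 that matched a protein with a hAT dimerization domain at 61.2% identity over 680 residues. Its sequence is shown because it held the element without any repeated 31-mer, with TAATTA in capitals.
AT5G35240 (chr5:13497151-13497330, plus strand): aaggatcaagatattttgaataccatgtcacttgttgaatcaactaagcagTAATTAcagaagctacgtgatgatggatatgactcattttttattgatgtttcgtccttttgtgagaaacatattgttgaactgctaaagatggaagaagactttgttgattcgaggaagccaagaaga
A match is a description of the letters and does not show a bound site. The next scores among the 12 were 133 in AT1G39670 and 133 in AT3G31373.

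Although no peak overlapped an NDX-GFP peak by rule, some shared their locus or neighbourhood with NDX-GFP. An NDX-GFP midpoint lay elsewhere in the same locus for 48 of the 355 peaks (13.5%, interval 10.4 to 17.5%). By locus, this was so for 35 of the 307 loci (11.4%), beside 139 of all 4843 pseudogene loci (2.87%), and the greater length of the 307 loci was not taken into account. The nearest NDX-GFP peak was a median of 25530 bp away, against 33127.5 bp for FLAG-NDX-only peaks outside both gene classes and 140925 bp for those of protein-coding genes. It was within 1000 bp for 27 peaks. The same sets had 76.1%, 61.9% and 14.9% of their peaks in the pericentromeric zones, which held 64.7% of all NDX-GFP peaks. Distances within the zones alone are not given, so nothing particular to the 355 is read from the medians. Another FLAG-NDX peak was a median of 3990 bp away and within 1000 bp for 69 peaks. Sequence under an NDX-GFP peak somewhere in the genome was alike to 35 of the 355 peaks, so in those cases the NDX-GFP list held a copy of all or part of the peak. Peaks with many copies have more places to meet an NDX-GFP peak, and that in AT1G39670, with 1370 copies, was alike to 26. The counts within 1000 bp and of alike peaks are not given for other FLAG-NDX peaks, so nothing particular to the 355 is read from them.

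At the limit of the rule, few peaks inside it lay next to an NDX-GFP peak. The peak in AT3G42255 (score 117) abutted an NDX-GFP peak (score 110) with a gap of 0 bp, and those in AT2G13520 (107) and AT2G15190 (153) came next, near NDX-GFP peaks with scores of 100 and 124. Just outside the rule, a peak in AT2G15870 (92) shared 30 bp with an NDX-GFP peak (89), and peaks in AT4G03910 (133) and AT2G07620 (97) shared 45 bp each with NDX-GFP peaks of 104 and 124. The median overlap of the 83 shared peaks was 120 bp, and 1 of them shared 30 bp or less.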

How the data were processed

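NDX was measured by ChIP-seq in 10-day-old seedlings. The submitters' processing notes name Bowtie2, SAMtools, Picard, deepTools and MACS2, without roles or versions, and the genome TAIR10. The authors deposited 1 list of peaks per tagged line with a score in the fifth column; the unit of this score, its threshold and how the 2 immunoprecipitations were combined are not given in the sources used here. Coordinates fall on a 15 bp grid. The lists hold no counts, so depth is unknown.

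Peaks were read against TAIR10.1 (RefSeq) with Python 3.11.15 and numpy 2.4.6, and 0 peaks reached beyond the ends of the 5 nuclear chromosomes. Sharing 1 bp with an NDX-GFP peak made a FLAG-NDX peak shared. Repeats were counted as 31-mers found more than once, on either strand, in the nuclear and organelle sequences. Loci were matched by BLAST 2.17.0 (blastx, e-value up to 1e-10) to 27137 annotated proteins, peaks to the assembly by blastn, and groups aligned with MAFFT 7.526. The counting steps were tested on simulated data. Intervals are at 95%. Named loci are the 10 highest scores, the highest of each class, the loci with most peaks, the largest groups of alike sequence and the peaks nearest the limit of the rule; other loci named were chosen after their values were seen. The peaks and classes were chosen with earlier results of these data known. Alternatives changed the overlap, the assignment, the score threshold, the zone, the k-mer length, the window and the match limit.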

Additional observations from a re-analysis of the deposited data

How the results depend on the processing

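Of 74 alternatives, 62 moved a value by less than its counting interval (counts by less than 1.5 times) and 12 by more. With peaks counted as shared when midpoints lay within 1 kb, the share of FLAG-NDX-only peaks in a locus with an NDX-GFP midpoint was 7.55%, against 13.5%. Keeping scores of at least 100 gave 2.88 peaks per 100 kb and a median score of 123. Keeping scores at or above the list's median of 119 left 172 peaks, with 1.66 per 100 kb, a median score of 136.25 and a TAATTA share of 1.74%. Both settings keep fewer peaks and remove low scores by construction. The pericentromeric share was 55.8% with a half-width of 1.5 Mb and 89.9% with 4 Mb, since the zone itself changes. The share without repeats was 18.9% with 21-mers and 59.7% with 51-mers. The stricter match limit and the restriction of classes to the zones, 22 of the 74, were added after seeing the data. Among these, the match limit of 1e-30 lowered the density in loci that matched En/Spm or DUF1985 proteins to 0.25 per 100 kb, against 2.30. Densities of the other classes stayed within their intervals, though all matched classes but PIF1 helicase lost peaks. The replication protein class was left with 3 of its 11 peaks and the uncharacterized class with 4 of 12. The hAT class kept 10 of 15, the Mutator or FAR1 class 16 of 22, and loci without a match rose from 149 to 204 peaks. Depth could not be judged from lists of peaks. Leaving out a replicate could not be run with 1 list per line. No paired analysis was possible because each line has 1 list of peaks and the results come from no test.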
